A study of Mus musculus with 7 samples.

Results

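The genes described here make, cut, carry and load the peptides that MHC class I molecules show at the cell surface, together with one of their regulators. They were chosen by symbol, though with earlier results of these data known. They comprise 10 genes of the 29517 in the deposited table: the class I chains H2-K1 and H2-D1, the light chain B2m, the peptide transporter and loading genes Tap1, Tap2 and Tapbp, the regulator Nlrc5, and the immunoproteasome subunits Psmb8, Psmb9 and Psmb10. All 10 were present and all 10 passed the filter on low counts, which left 19185 genes for testing. The series sequenced poly(A) RNA of inguinal white adipose tissue, the groin fat pad of the mouse, to ask how loss of the membrane protein TM4SF5 alters its transcriptome. Of 7 libraries, 4 came from wild-type (WT) mice and 3 from TM4SF5-/- mice (KO), all C57BL/6, untreated and on standard chow. The design text gives 3 replicates for either genotype, but 4 samples are labelled WT, and all 7 libraries were used. The labels give no age, sex, litter or batch, and do not say which part of the gene was deleted or in which cells.

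Class I molecules occur on nearly all nucleated cells. The proteasome cuts cytosolic proteins into peptides, TAP1 and TAP2 together form the transporter that pumps these into the endoplasmic reticulum, and tapasin (Tapbp) holds the transporter to a heavy chain paired with β2-microglobulin until a fitting peptide is bound. Interferon-γ induces most of these genes, and the immunosubunits PSMB8, PSMB9 and PSMB10 then take the places of PSMB5, PSMB6 and PSMB7 in newly built proteasomes. NLRC5 acts in the nucleus on class I promoters, as CIITA does on class II promoters. In fat, adipocytes, vessels, progenitors and leukocytes all carry class I, so a bulk sample adds their RNA together, and fewer cells of a type cannot be told apart from less RNA per cell.

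The members lie on 3 chromosomes. Of the 10, 7 are in the MHC on chromosome 17 (coordinates of GRCm38.p6, the assembly of mm10). Psmb9, Tap1, Psmb8 and Tap2 sit side by side there, within 34292 bases (chr17:34182030-34216321). B2m is on chromosome 2 (chr2:122147687-122153082), and Nlrc5 (chr8:94434335-94527272) and Psmb10 (chr8:105935728-105938392) are on chromosome 8. The Psmb9 and Tap1 genes run in opposite directions from start sites 226 bases apart, so one short stretch is the promoter region of both. Both start sites are the first bases of the RefSeq gene records.

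Promoter sequences of 8 of the 10 members, all but Tap2 and Nlrc5, were matched in the RefSeq table for GRCm38.p6. Each is a window of 300 bases from 250 before to 50 after the start used for it. That start is the first base of the RefSeq gene record for all but H2-K1. The H2-K1 record begins farther upstream, at chr17:34000619 on the minus strand, so the whole H2-K1 window lies inside it. Of the 8 windows, 5 are printed 5′ to 3′ on the strand of the gene. Their genes are either the abundant surface chains (B2m, H2-K1, H2-D1) or peptide supply genes among those with lower estimates in KO (Tap1, whose window shares 275 bases with that of Psmb9, and Psmb8). The windows of Tapbp, Psmb9 and Psmb10 are not printed. Psmb10 also had a negative estimate (-0.08), and its window held no match to the motifs below. Capitals mark every match, on either strand, to 6 short motifs: 2 forms of the interferon-stimulated response element (TTTCNNTTT and TTTCNNTTC), the gamma-activated site (TTCNNNGAA), the CCAAT box (CCAAT), an X2 box-like TGACG and a kappa B-like GGGANNNCC. The windows are chr2:122147437-122147736 (plus strand) for B2m, chr17:34000298-34000597 (minus strand) for H2-K1, and chr17:35262844-35263143, chr17:34187306-34187605 and chr17:34197945-34198244 (plus strand) for H2-D1, Tap1 and Psmb8.
B2m: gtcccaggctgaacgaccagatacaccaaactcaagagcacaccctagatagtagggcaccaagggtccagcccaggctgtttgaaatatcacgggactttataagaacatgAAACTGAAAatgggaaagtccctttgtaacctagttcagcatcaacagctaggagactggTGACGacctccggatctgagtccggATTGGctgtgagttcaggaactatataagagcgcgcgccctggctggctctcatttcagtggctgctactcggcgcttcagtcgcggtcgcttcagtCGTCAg
H2-K1: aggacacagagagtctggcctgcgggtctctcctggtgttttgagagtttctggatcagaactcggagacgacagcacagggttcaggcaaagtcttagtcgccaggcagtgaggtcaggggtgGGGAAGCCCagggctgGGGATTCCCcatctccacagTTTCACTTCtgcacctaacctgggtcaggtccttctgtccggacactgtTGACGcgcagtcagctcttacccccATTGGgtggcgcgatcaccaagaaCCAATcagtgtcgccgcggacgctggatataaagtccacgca
H2-D1: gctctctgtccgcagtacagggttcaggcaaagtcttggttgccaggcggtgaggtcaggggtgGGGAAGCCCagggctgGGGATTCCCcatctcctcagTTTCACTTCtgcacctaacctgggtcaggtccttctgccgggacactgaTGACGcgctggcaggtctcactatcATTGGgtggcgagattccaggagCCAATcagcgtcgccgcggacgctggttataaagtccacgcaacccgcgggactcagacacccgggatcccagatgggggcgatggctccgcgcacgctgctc
Tap1: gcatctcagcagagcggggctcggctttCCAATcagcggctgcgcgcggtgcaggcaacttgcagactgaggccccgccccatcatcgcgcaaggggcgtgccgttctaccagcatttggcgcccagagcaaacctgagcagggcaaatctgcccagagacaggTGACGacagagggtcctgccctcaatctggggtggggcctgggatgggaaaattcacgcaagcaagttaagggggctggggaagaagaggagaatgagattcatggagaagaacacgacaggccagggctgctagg
Psmb8: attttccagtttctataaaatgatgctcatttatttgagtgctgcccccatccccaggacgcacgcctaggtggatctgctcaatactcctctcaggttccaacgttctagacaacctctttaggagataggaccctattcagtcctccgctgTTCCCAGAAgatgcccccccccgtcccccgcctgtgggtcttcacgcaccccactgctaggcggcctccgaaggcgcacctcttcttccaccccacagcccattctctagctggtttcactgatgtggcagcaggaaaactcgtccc

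H2-K1 and H2-D1 carried the same motifs in the same order, 2 kappa B-like matches, then a response element match, the X2 box-like match and a CCAAT box on each strand. Each lay 60 bases farther upstream in H2-D1 relative to the start used for its window, except the last, with 61. The H2-K1 start used is not that of its gene record, so this offset depends on the choice of start. With that shift, 73.3% of 240 compared bases were identical. B2m shared with both of them a TGACG whose first base lies 25 bases before that of an ATTGG, the CCAAT box read on the other strand. This spacing, looked for after the windows had been read, occurred in 26 of 27025 promoters (0.0962%), among them those of B2m, H2-K1, H2-D1 and the class I gene H2-M3. Of these 26 genes, 22 were tested, of which 3 were lower and 4 higher in KO at an unadjusted p under 0.05. Of all genes tested, 9.51% were lower and 12.3% higher at that threshold.

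Taken singly, the motifs were common. TGACG was in 5 of the 8 member windows and in 21% of all promoters, and CCAAT in 6 of 8 and in 37.9%. TTTCNNTTC was in the windows of H2-K1 and H2-D1 and in 7.56% of all promoters, and GGGANNNCC in the same 2 windows and in 18.2%. TTTCNNTTT was in that of B2m alone among the members and in 10.7% of all promoters, and TTCNNNGAA in that of Psmb8 alone and in 8.47%. A match describes letters and shows no binding.

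Library totals ran from 49775077 to 60241436 counts. Levels are in CPM, read counts divided by a TMM-scaled library size, and differences between KO and WT were tested with the quasi-likelihood test of edgeR, with Benjamini-Hochberg adjustment over all genes tested. Intervals are 95% intervals of edgeR's log2 fold change, not adjusted. Reads of Tm4sf5 itself numbered 33, 45, 47 and 20 in the WT libraries, in order of replicate number, against 7, 6 and 17 in those labelled KO 1 to KO 3. After TMM scaling the library labelled KO 3 (0.353 CPM) lay above WT 4 (0.322 CPM), against its label. By raw reads (17 against 20) and by total counts alone it lay below WT 4. With so few reads, this order depends on the scaling and cannot decide whether the label is right. Counts without KO 3 are given where stated. On the first principal component (35.7% of the variance) KO 1 stood most apart. Of 8 adipocyte markers, 8, Adipoq, Plin1 and Fabp4 among them, were detected in every library. This shows that fat was present, and not how much other tissue was.

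No member passed the test between the genotypes. With edgeR, 0 of the 10 members passed an adjusted p of 0.05, as did 0 of all 19185 genes (0.0%). At an unadjusted p under 0.05, 0 members were lower, where 9.51% of all genes were, and 0 were higher, where 12.3% of all genes were. The WT and KO libraries overlapped for all 10 members, while 8.92% of all genes were lower and 11.4% higher in KO with no overlap. DESeq2 called 0 members at an adjusted p under 0.05, against 12.8% of the 16925 genes to which it gave an adjusted p. The members' log2 fold changes ran from -0.54 to 0.19 with a median of -0.08, beside a median of -0.04 over all genes.

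By level, the members formed tiers. Per kilobase of the longest coding transcript, B2m was the most abundant, at 1401 to 2028 CPM per kilobase over the 7 libraries. H2-K1 (812 to 1111) and H2-D1 (667 to 840) came next and overlapped each other. Tapbp followed at 84.9 to 106 CPM per kilobase. Psmb8 (42.0 to 78.6), Tap1 (21.7 to 53.5), Psmb10 (26.8 to 44.2), Tap2 (28.0 to 35.2) and Psmb9 (22.5 to 43.8) overlapped with their neighbours in this order. Nlrc5, the regulator, was lowest at 6.67 to 17.2 CPM per kilobase.

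**Figure D1:**
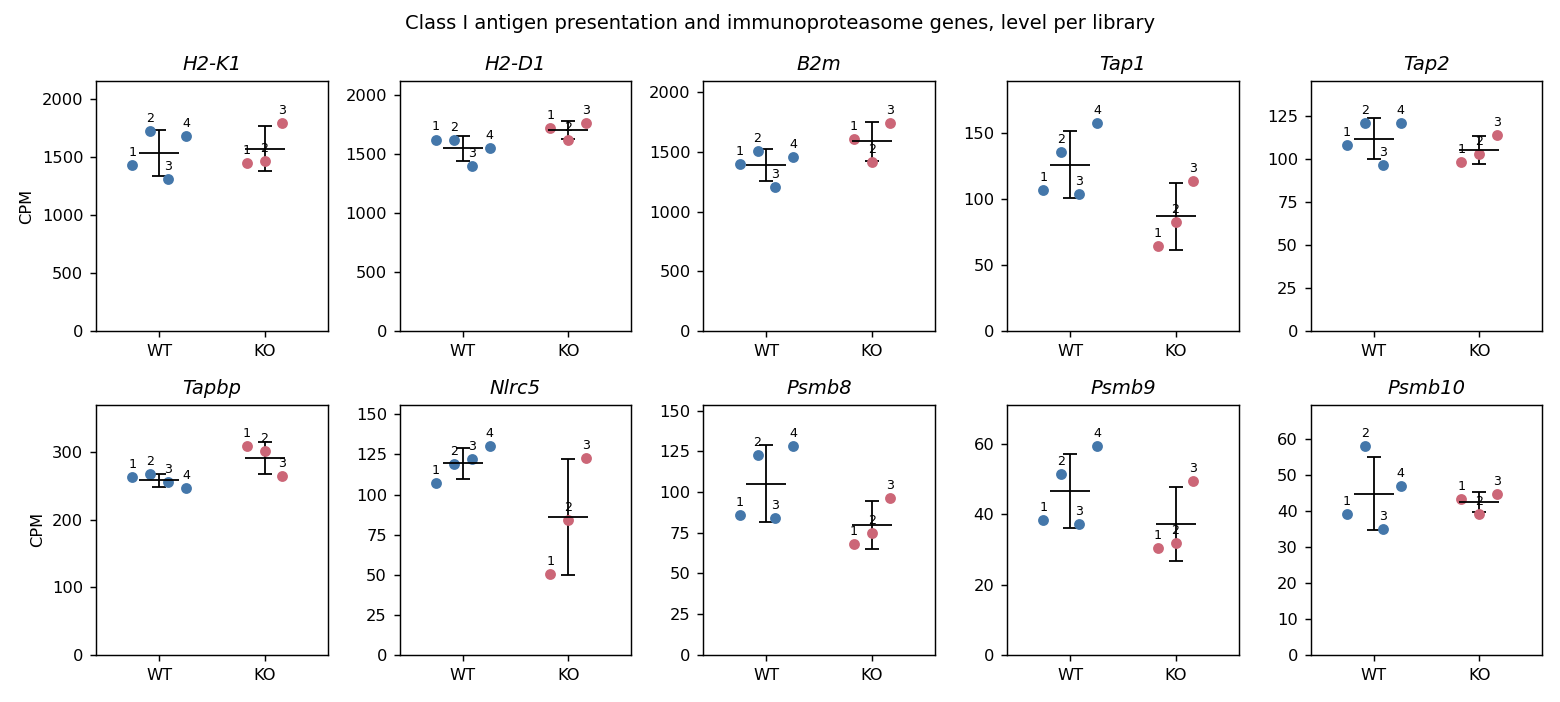
CPM of each member in each library, with the vertical axes starting at 0. Points are libraries with their replicate number, horizontal bars are group means and whiskers are SDs (4 WT, 3 KO). In every panel the WT and KO points overlap, and KO 1 is the lowest library for Tap1, Nlrc5, Psmb8 and Psmb9.

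From the lowest to the highest of the 7 libraries, the surface chains H2-D1, H2-K1 and B2m spanned 1.26-fold, 1.37-fold and 1.45-fold. Tapbp (1.25-fold) and Tap2 (1.26-fold) spanned as little, Psmb10, Psmb8 and Psmb9 spanned 1.65-fold to 1.95-fold, and Tap1 (2.46-fold) and Nlrc5 (2.58-fold) the most. H2-K1, a classical heavy chain that presents peptide to CD8 T cells, stood at 1433, 1727, 1315 and 1683 CPM in WT 1 to WT 4 and at 1454, 1470 and 1799 CPM in KO 1 to KO 3. Its lowest library was WT 3 and its highest KO 3, so that the KO libraries lay inside or just above the WT range. KO exceeded WT by 0.03 in log2 terms (SE 0.20, edgeR adjusted p = 0.938), with an interval from -0.42 to 0.48, or from 0.749-fold to 1.40-fold.

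H2-D1, the other classical heavy chain, was at 1623, 1620, 1402 and 1548 CPM in WT and at 1723, 1615 and 1765 CPM in KO. KO 1 and KO 3 lay above every WT library and KO 2 within them. The estimate for H2-D1 was a log2 fold change of 0.14 (SE 0.17, edgeR adjusted p = 0.665; interval -0.26 to 0.53). B2m, the light chain that all class I heavy chains need to reach the surface, was at 1395, 1508, 1205 and 1457 CPM in WT and at 1605, 1418 and 1744 CPM in KO, a log2 fold change of 0.19 (SE 0.18, edgeR adjusted p = 0.561; interval -0.23 to 0.61). As with H2-D1, KO 2 lay within the WT range and the other KO libraries above it. Scaling by total counts alone, which shifted the median over all genes from -0.04 to -0.35, turned these estimates to -0.28 for H2-K1, -0.18 for H2-D1 and -0.13 for B2m, so the direction for all 3 depended on the scaling. The estimate of H2-K1 also turned negative without KO 3 (-0.056) or without WT 3 (-0.037). Class I heavy chains resemble each other: 3.59% of the 100-base windows of H2-D1 transcripts and 0.957% of those of H2-K1 occurred letter for letter in transcripts of another gene, mostly other class I genes, and such reads cannot be assigned with certainty.

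Of the transporter genes, Tap1 had the lowest estimate of all members. Its levels were 107, 136, 104 and 158 CPM in WT and 64.2, 83.0 and 114 CPM in KO. KO 1 and KO 2 lay below every WT library, while KO 3 lay above WT 1 and WT 3. The group means of Tap1 were 126 ± 25.6 CPM for the 4 WT and 86.9 ± 24.9 CPM for the 3 KO libraries (± SD), and the estimate on the log2 scale was -0.54 (SE 0.23, edgeR adjusted p = 0.230; unadjusted p = 0.0503). Tap2, its partner, was at 108, 121, 96.3 and 121 CPM in WT and 98.1, 103 and 114 CPM in KO. All 3 KO values of Tap2 lay inside the WT range, with an estimate of -0.09 (SE 0.13, edgeR adjusted p = 0.730; interval -0.40 to 0.22). The ratio of Tap1 to Tap2 counts, looked at after these values were seen and so not tested, was 0.995, 1.12, 1.08 and 1.31 in WT 1 to WT 4 and 0.654, 0.807 and 0.998 in KO 1 to KO 3. KO 3 (0.998) and WT 1 (0.995) were the libraries at which the groups met.

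Tapbp, which encodes tapasin, leaned the other way. It was at 263, 267, 255 and 246 CPM in WT and at 308, 301 and 264 CPM in KO. KO 1 and KO 2 were above all WT libraries and KO 3 was among them. Its log2 estimate was 0.18 (SE 0.13, edgeR adjusted p = 0.456; interval -0.12 to 0.47), and it was -0.15 with total counts alone.

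Nlrc5, which activates class I genes, had the widest spread among the KO libraries of any member, relative to its mean. Its WT libraries lay close together at 107, 119, 122 and 130 CPM, and its KO libraries far apart at 50.6, 84.4 and 123 CPM. KO 1 and KO 2 were below all WT libraries, and KO 3 was higher than 3 of the 4 WT libraries. The estimate for Nlrc5 was -0.47 on the log2 scale (SE 0.27, edgeR adjusted p = 0.344), with an interval from -1.10 to 0.15. In KO 1, the library with the least Nlrc5, the NLRC5 targets H2-K1, H2-D1 and B2m were at 1454, 1723 and 1605 CPM. These levels lay within or above their WT ranges. Tap1, Psmb8 and Psmb9 had their lowest levels there (64.2, 68.3 and 30.4 CPM). The places of H2-K1, H2-D1 and B2m rest on the TMM factor of KO 1 (0.798), the lowest of all libraries. By total counts alone, KO 1 lay below every WT library for each of them. Whether these genes follow Nlrc5 was not tested.

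The immunosubunits differed in how far KO libraries sat from WT. Psmb8 was at 85.6, 123, 84.3 and 128 CPM in WT and at 68.3, 74.6 and 96.1 CPM in KO. Psmb9 was at 38.5, 51.4, 37.2 and 59.3 CPM in WT and at 30.4, 31.9 and 49.4 CPM in KO. For both genes KO 1 and KO 2 were the lowest 2 of the 7 libraries and KO 3 lay among the WT libraries. Their log2 fold changes were -0.40 for Psmb8 (SE 0.21, edgeR adjusted p = 0.302) and -0.32 for Psmb9 (SE 0.24, edgeR adjusted p = 0.458). Psmb10 was at 39.2, 58.0, 35.1 and 47.1 CPM in WT and at 43.5, 39.3 and 44.7 CPM in KO, all 3 KO values inside the WT range. The estimate for Psmb10 was -0.08 on the log2 scale (SE 0.19, edgeR adjusted p = 0.832; interval -0.50 to 0.35). From the lowest to the highest library, Tap1, Psmb9 and Psmb8 had the same order, KO 1, KO 2, WT 3, WT 1, KO 3, WT 2 and WT 4. These genes are neighbours in the MHC, and although the RefSeq gene bodies of Tap1 and Psmb9 do not overlap, their GENCODE M21 models do, on opposite strands, with the strand setting and annotation of the counting not given.

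The number of members past the unadjusted threshold depended on single libraries and on the scaling. Without KO 3, Tap1, Nlrc5 and Psmb9 were lower at an unadjusted p under 0.05, 3 of 10 members against 11.2% of all genes, and 0 passed the adjusted threshold. In that fit their log2 fold changes were -0.76 for Tap1, -0.81 for Nlrc5 and -0.56 for Psmb9. Without KO 1 the count was 0 and Nlrc5 had an estimate of -0.20. With total counts alone, Tap1, Tap2, Nlrc5 and Psmb8 were lower at that threshold, 4 of 10 against 25.4% of all genes. Tap1 alone was lower at it without WT 1, without WT 3, with DESeq2, with limma-voom, with DESeq2-type size factors and with no filter on low counts.

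Each immunosubunit has a constitutive counterpart, and these had positive estimates that did not pass the adjusted threshold. Psmb5 was at 50.1, 77.6, 67.9 and 63.5 CPM in WT and at 119, 72.4 and 123 CPM in KO, a log2 fold change of 0.69 (SE 0.22, edgeR adjusted p = 0.140). Psmb6 had 0.48 (SE 0.17, edgeR adjusted p = 0.173) and Psmb7 had 0.59 (SE 0.17, edgeR adjusted p = 0.125). Only for Psmb7, among these 3, were the groups without overlap, and KO 2 lay inside the WT range for Psmb5 and Psmb6. All 3 were higher at an unadjusted p under 0.05, and none was with total counts alone, with the replicate block or without KO 1. The counts of Psmb5 carry a further uncertainty, as 22.2% of its 100-base windows also occurred in other transcripts, nearly all in Gm3375.

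**Figure D2:**
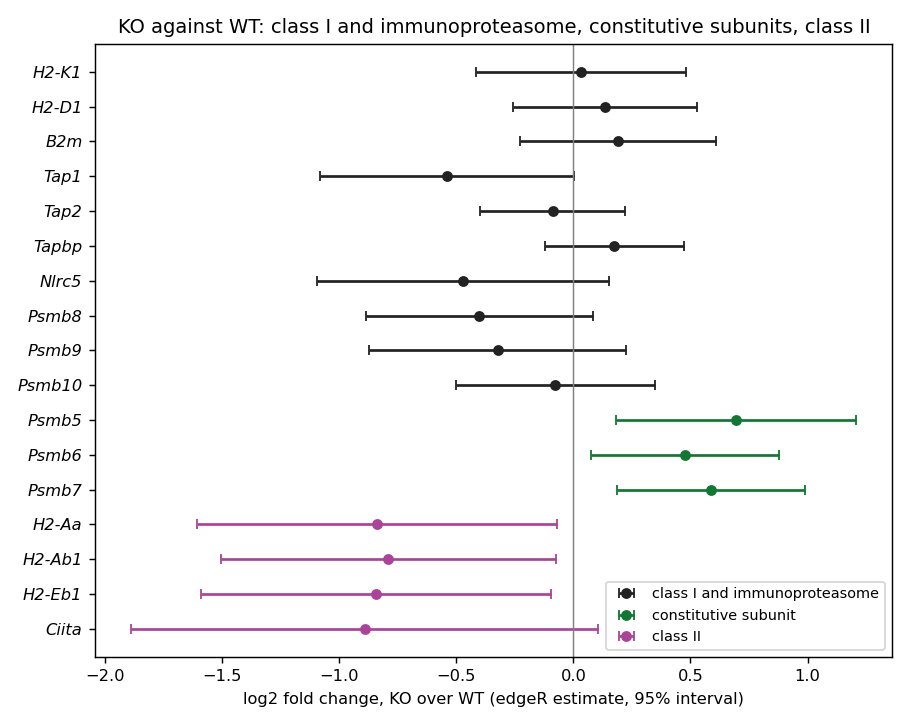
Log2 fold change of KO over WT (horizontal axis) for the members, the constitutive proteasome subunits and 4 class II genes, as edgeR estimates with 95% intervals that are not adjusted. All 10 intervals of the members include 0, those of Psmb5, Psmb6 and Psmb7 lie above it, and those of H2-Aa, H2-Ab1 and H2-Eb1 below it.

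Within a library, the balance of immunosubunit to constitutive message was lower in KO for 2 of the 3 pairs by the exact test, and the third did not pass. This ratio of counts does not depend on how libraries are scaled, and transcript length cancels when libraries are compared. Psmb8 over Psmb5, the pair with chymotrypsin-like activity, was 1.71, 1.59, 1.24 and 2.02 in WT 1 to WT 4 and 0.572, 1.03 and 0.782 in KO 1 to KO 3. Every KO library lay below every WT library. Such separation was common among single genes, of which 8.92% were lower and 11.4% higher in KO with no overlap. Its share among ratios of other gene pairs was not computed. The mean log2 ratio fell by 1.06, from 0.69 ± 0.29 (SD, n = 4) to -0.37 ± 0.42 (SD, n = 3), a ratio 0.479-fold that of WT (exact two-sided permutation p = 0.0286; 0.0429 after adjustment over the 3 ratios tested).

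Psmb9 over Psmb6, the caspase-like site in the constitutive form, was 0.658, 0.646, 0.564 and 0.877 in WT and 0.269, 0.426 and 0.517 in KO. The groups again did not overlap, with KO 3 (0.517) nearest to WT 3 (0.564). The mean log2 ratio fell by 0.80 (exact two-sided permutation p = 0.0286; 0.0429 after adjustment). Psmb10 over Psmb7, the trypsin-like pair, was 0.517, 0.547, 0.364 and 0.507 in WT and 0.264, 0.350 and 0.317 in KO, a mean log2 difference of -0.63 that did not pass (exact two-sided permutation p = 0.0571, also 0.0571 after adjustment). Here too all 3 KO libraries lay below the WT libraries, but KO 2 (0.350) and WT 3 (0.364) were nearly level. Without KO 3 the differences were -1.07 for Psmb8 over Psmb5, -1.0 for Psmb9 over Psmb6 and -0.65 for Psmb10 over Psmb7. With 4 libraries against 3, 0.0286 is the smallest p this test can give.

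**Figure D3:**
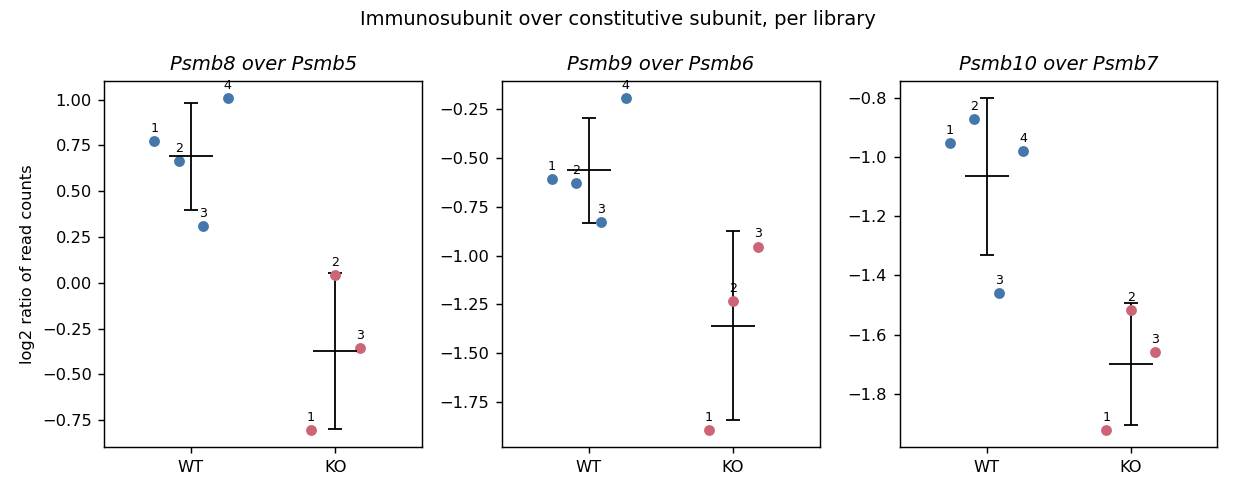
Log2 ratio of the read counts of each immunosubunit to those of the constitutive subunit it replaces, per library. Points carry their replicate number, bars are means and whiskers SDs. In all 3 panels the 3 KO libraries lie below the 4 WT libraries, most narrowly for Psmb10 over Psmb7.

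The other genes of the pathway had estimates in both directions, and with edgeR 0 of 76 passed the adjusted threshold. At an unadjusted p under 0.05, 18 were lower and 11 higher, which became 30 and 10 without KO 3, 5 and 3 without KO 1, and 37 and 2 with total counts alone. The numbers over all genes moved as well. Of all genes, 9.51% were lower and 12.3% higher as reported. The lower share was 11.2% without KO 3 and 25.4% with total counts alone. Without KO 1, 948 of 19924 genes were lower and 1383 higher, and with total counts alone 694 of 19185 were higher. With the replicate block, 1592 of 19185 were lower and 1671 higher. Among 16 tested class I and class I-like chains outside the members, 3 were lower and 2 higher at an unadjusted p under 0.05, and the median estimate was -0.36 on the log2 scale. The lower genes were H2-T23, which encodes the Qa-1 chain read by NK receptors (-0.74, SE 0.24), H2-M3, which presents formylated peptides (-0.79, SE 0.27), and H2-T24 (-0.88, SE 0.34). The number of lower chains was 7 without KO 3 and 1 without KO 1 or KO 2. Cd1d1, which presents lipids to NKT cells, was higher at 186, 148, 194 and 136 CPM in WT and 320, 253 and 337 CPM in KO, a log2 fold change of 0.87 (SE 0.18, edgeR adjusted p = 0.0956). The groups for Cd1d1 did not overlap. Hfe, a class I-like regulator of iron uptake, was also higher (0.76, SE 0.24). H2-Q10, a secreted class I chain, was at 52.1 to 191 CPM in WT and 175 to 270 CPM in KO (0.94, SE 0.41) and did not pass.

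Of 12 genes of peptide supply and loading, 4 were higher and 1 lower at the unadjusted threshold, with a median of -0.04. Bcap31, an endoplasmic reticulum protein that takes part in the export of class I molecules, was at 151, 150, 142 and 163 CPM in WT and 324, 228 and 321 CPM in KO (0.94, SE 0.16, edgeR adjusted p = 0.0956). The cytosolic peptidases Lap3 (0.55, SE 0.14), Npepps (0.31, SE 0.12) and Blmh (0.31, SE 0.13) were the other higher genes, the last 2 of which had estimates just below 0 with total counts alone (-0.015 for Npepps and -0.013 for Blmh), and Uggt1, which checks glycoprotein folding, was the lower one (-0.33, SE 0.14). The chaperones of the loading complex Calr (-0.05), Canx (-0.03) and Pdia3 (-0.20), and the trimming peptidase Erap1 (-0.09), did not pass. Of 8 proteasome partners, 4 were higher and 0 lower, namely Psmb5, Psmb6, Psmb7 and Pomp, the maturation factor of the core particle (0.41, SE 0.15). The higher count was 0 with total counts alone, with the replicate block and without KO 1, 2 without KO 3, WT 1 or WT 3, and 5 without KO 2 or WT 2. Psme1 (0.02, or -0.29 with total counts alone) and Psme2 (0.40), the subunits of the interferon-inducible PA28 cap, did not pass.

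Of 22 regulators of class I genes, 8 were lower and 1 higher at the unadjusted threshold, with a median of -0.28. The lower count was 1 with the replicate block, 2 without KO 1, 3 without WT 4, 5 without KO 2, 8 without KO 3 and 15 with total counts alone. By p-value the lower genes began with Stat2, a subunit of the type I interferon signal complex (-0.42, SE 0.13), Nfkb1, a subunit of NF-κB (-0.45, SE 0.15), the receptor kinase Jak2 (-0.40, SE 0.14) and Creb1, which binds CRE-like sites (-0.45, SE 0.16). Irf8 (-0.92, SE 0.33) and Socs1 (-0.78, SE 0.34) had the most negative estimates among them. Irf1, which links interferon-γ to Nlrc5 and the immunosubunits, was at 100, 106, 79.3 and 103 CPM in WT and 88.5, 90.9 and 93.4 CPM in KO, all 3 KO values within the WT range. Ifng, the inducing cytokine, was at 0.176 to 0.544 CPM in all libraries.

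On the side that reads class I, all 8 receptor and coreceptor genes had negative estimates (median -0.83) and 2 were lower at an unadjusted p under 0.05. This became 8 of 8 without KO 3, and 4 under either total-count scaling or a replicate block. Of all genes, 9.51% were lower as reported, 11.2% without KO 3, 25.4% with total counts alone and 1592 of 19185 with the replicate block. Pirb, an inhibitory class I receptor of myeloid and B cells, was at 53.0, 39.1, 48.0 and 57.5 CPM in WT and 14.8, 20.7 and 28.0 CPM in KO, without overlap (-1.22, SE 0.24, edgeR adjusted p = 0.0956). Klrc1, an NK receptor chain that reads Qa-1, had -1.39 (SE 0.41). Cd8a, a CD8 coreceptor chain, was at 60.0 to 83.6 CPM in WT and 25.5 to 81.5 CPM in KO (-0.52, SE 0.36) and did not pass.

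Class II genes, which leukocytes express in the main, were not tested against the members. All 10 had negative estimates (median -0.77), of which 4 were lower at an unadjusted p under 0.05 and 0 passed over all genes. The lower count was 7 without KO 3, and likewise 7 in the fit with total counts alone and in that with a replicate block, 8 without WT 1, 2 without WT 3, and 0 without KO 1, KO 2, WT 2 or WT 4. H2-Ab1, a class II chain, was at 369, 594, 515 and 651 CPM in WT and 203, 269 and 450 CPM in KO (-0.79, SE 0.31, edgeR adjusted p = 0.197). The ratio of B2m to H2-Ab1 counts, also chosen after the values were seen and so not tested, was 3.79, 2.54, 2.34 and 2.24 in WT and 7.89, 5.26 and 3.87 in KO. KO 3 (3.87) and WT 1 (3.79) were close. Ciita, the class II regulator related to Nlrc5, was at 65.6, 112, 119 and 210 CPM in WT and 37.9, 68.6 and 98.8 CPM in KO (-0.89, SE 0.43) and did not pass.

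Leukocyte markers were low in the same KO libraries as the lower members. Ptprc, the pan-leukocyte marker CD45, was at 312, 534, 449 and 733 CPM in WT and 145, 283 and 426 CPM in KO, lowest in KO 1 and highest in WT 4, as were Tap1, Nlrc5, Psmb8 and Psmb9. Of 6 leukocyte markers, 6 were detected in every library, with a summed level of 1315 to 2521 CPM in WT and 655 to 1614 CPM in KO, and 3 were lower at an unadjusted p under 0.05, with 6 without KO 3 or WT 1, 1 without KO 1 and 0 without KO 2. The 8 macrophage markers summed to 1234 to 1867 CPM in WT and 420 to 658 CPM in KO, with 8 of 8 lower at that threshold, beside 9.51% of all genes. Unlike Ptprc, their sum was highest in WT 1 (1867 CPM), with 1268 CPM in WT 4. The 8 T and NK cell markers summed to 246 to 406 CPM in WT and 143 to 333 CPM in KO, with 1 lower at that threshold and 8 without KO 3. The 6 B cell markers summed to 275 to 1545 CPM in WT and 271 to 847 CPM in KO, with 275 CPM in WT 1 and 1545 CPM in WT 4. The 8 adipocyte markers summed to 7452 to 10658 CPM in WT and 14878 to 22524 CPM in KO, a sum in which Fabp4 was the largest part (5255 CPM in WT 1, 12763 CPM in KO 1). Of these 8, 5 were higher at that threshold (2 without KO 1, 3 with total counts alone), while Lep had an estimate of -0.56 and Pparg one of 0.20, or -0.14 with total counts alone. The 6 endothelial markers (322 to 1101 CPM in WT, 481 to 911 in KO) and the 6 progenitor markers (602 to 4518 and 565 to 1661 CPM) overlapped. Muscle markers ran from 2.54 to 987 CPM in WT and from 11.1 to 126 CPM in KO, with Ckm and Myh4 at 0 in some libraries, and epithelial markers from 2.1 to 4.29 and from 4.0 to 15 CPM, with Krt14 and Krt5 at 0 in some. The part of these cells in the levels of the members was not tested.

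**Figure D4:**
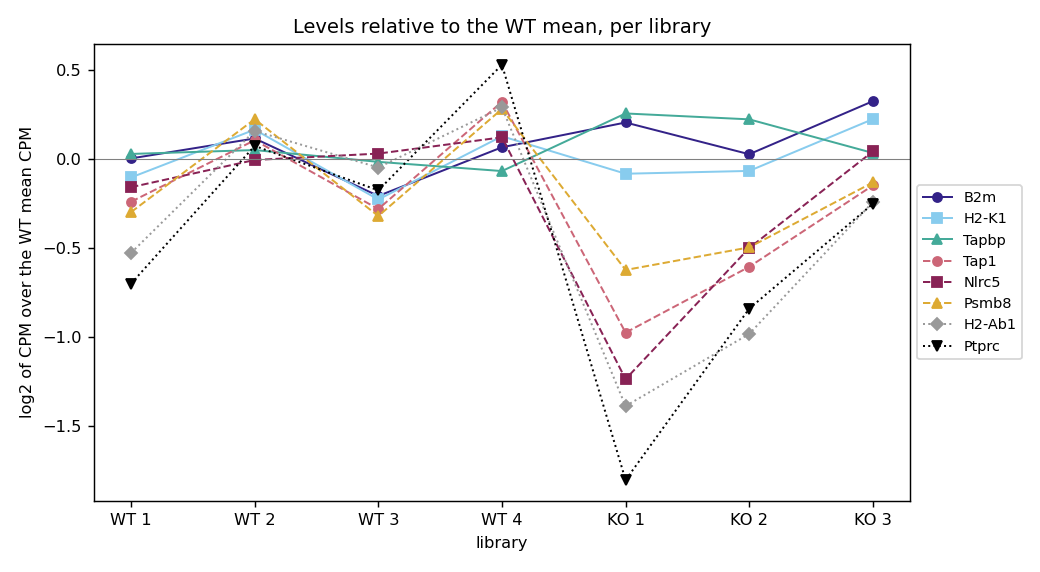
Log2 of CPM over the WT mean CPM (vertical axis) in each library for 6 members, the class II gene H2-Ab1 and the leukocyte marker Ptprc. Lines join the libraries of 1 gene and imply no order. On this TMM-scaled axis, B2m, H2-K1 and Tapbp (solid lines) stay near 0 in KO 1. Tap1, Nlrc5 and Psmb8 (dashed) and H2-Ab1 and Ptprc (dotted) lie well below it there.

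The 5 genes whose pattern over the 7 libraries was most like the mean of the standardized members were Gm6039, Bax, Ldb1, Taf1a and Rplp0, with Pearson's r of 0.984, 0.976, 0.970, 0.963 and 0.961 as a description among 11826 genes with a mean of at least 5 CPM. All 5 varied little, such as Bax from 20.3 to 28.8 CPM, and their log2 fold changes lay between -0.10 and -0.06. The libraries share their scaling, so these likenesses are not independent of it.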

How the data were processed

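The authors deposited 1 table of raw read counts per gene for 7 libraries. Per the submitters' processing notes, bcl2fastq 2.20.0, Trimmomatic, HISAT2 2.1.0, StringTie 1.3.4d and DESeq2 were used with mm10. The libraries used a stranded mRNA kit, per the labels' protocols; which annotation, counting rule and strand option were used is not given in the sources used here. Of 29517 identifiers, 29444 matched the RefSeq gene table of GRCm38.p6. Transcript lengths and overlaps came from GENCODE M21.

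Genes were kept by filterByExpr (minimum count 10), scaled by TMM and compared in edgeR 4.0.16 (R 4.3.3) by the quasi-likelihood test without covariates, with Benjamini-Hochberg adjustment over all 19185 genes. Labels do not say that replicates are separate animals, though the design text calls them biological, so a p-value reflects only how these samples varied, which may be technical in part. Subunit ratios used an exact two-sided permutation test over 35 regroupings. Alternatives were other scalings and filters, DESeq2 1.42.0, limma-voom (limma 3.58.1), a replicate block and each library left out. The edgeR script was tested on simulated data.

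The members and the 15 other gene lists were chosen with earlier results of these data known. All 10 members are named, and of other lists up to 4 genes with the smallest p, plus Psmb5, Psmb6, Psmb7, Tm4sf5 and Ptprc. H2-T24, H2-Q10, Calr, Canx, Pdia3, Erap1, Uggt1, Psme1, Psme2, Irf1, Irf8, Socs1, Ifng, Cd8a, Ciita and the adipocyte genes were named after their values were seen. The 5 most alike genes were taken by correlation with the mean of the members' standardized log2 CPM (prior count 2).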

Additional observations from a re-analysis of the deposited data

How the results depend on the processing

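Of 140 alternative values of the members' log2 fold changes, 133 kept their direction and their side of the adjusted threshold, and the smallest adjusted p of a member in any fit was 0.120. The other 7 changed sign: with total counts alone H2-K1 (-0.28), H2-D1 (-0.18), B2m (-0.13) and Tapbp (-0.15), H2-K1 also without KO 3 and without WT 3 (-0.037), and Psmb10 without WT 2. With one library left out, the log2 fold change of H2-K1 ran from -0.056 (without KO replicate 3) to 0.10 (without KO replicate 2), and that of Psmb10 from -0.18 to 0.072. The number of members past the adjusted threshold was 0 in all 14 alternative fits. The number lower at an unadjusted p under 0.05, 0 as reported, was 1 (Tap1) with DESeq2-type size factors, with DESeq2, with limma-voom and with no filter, 4 with total counts alone, and 0 to 3 with one library left out. The number higher was 0 in every fit. The number without overlap, 0 as reported, was 2 with total counts alone and 0 to 5 with one library left out, at its most without KO 3. The share of all genes without overlap in those settings was not computed. Fewer libraries make separation easier for any gene, so these counts say nothing particular about the members.

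Of the 76 other tested pathway genes, 18 were lower and 11 higher at that threshold. The lower count was 37 with total counts alone, where 25.4% of all genes were lower. With one library left out it was 5 to 30, with 5 without KO 1, 7 without WT 4, 9 without KO 2, 11 without WT 2 and 30 without KO 3. The higher count was 2 with total counts alone and 3 to 11 with one library left out, with 3 without KO 1. Deviations of same-numbered libraries had correlations of 0.22, -0.17 and -0.02, beside -0.37 to 0.24 for differently numbered ones. These few values show no pairing by number and cannot exclude it. With the replicate block, which takes WT 4 out of the comparison, the higher count was 4 and no member passed. In that fit Tap1 had -0.44, and the mean paired log2 differences were -0.96 for Psmb8 over Psmb5, -0.67 for Psmb9 over Psmb6 and -0.60 for Psmb10 over Psmb7.

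Leaving out one library, the log2 difference ran from -1.27 to -0.85 for Psmb8 over Psmb5 and from -1.0 to -0.53 for Psmb9 over Psmb6, where the smallest p the exact test can give is 0.0667 or 0.1, so it cannot pass. The lowest count of any member in a library was 1208.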
